A study of Mus musculus with 18 samples.

Results

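Embryoid bodies (EBs) grown with LIF for 3 or 4 days were compared with EBs grown with LIF for 1 or 2 days. The comparison used 8 of the 18 arrays of the series: the later group was D3+LIF and D4+LIF and the early group was D1+LIF and D2+LIF, each condition with 1 array in which the sample carried Cy3 and 1 in which it carried Cy5. All 4 conditions came from IMT11, a single mouse ES cell line, aggregated at a fixed cell number in hanging drops. Serum and LIF were present throughout, so both groups carry the cytokine and differ in days of culture. The paper describes trypsin treatment and an added wash for larger bodies of Days 3 and 4 before RNA extraction. For the arrays it says that bodies were trypsinized in that way, without giving days. Such handling cannot be told apart from the days of culture. Each sample was hybridised against a pooled control on the NIA 15K cDNA set, which is printed on 2 slides with every clone spotted in duplicate. The labels speak of 2 biological sets without assigning arrays to them. The Cy3 and Cy5 arrays of a condition were taken to carry different RNA, so a difference between sets cannot be told apart from the dye. The pool was made from EBs of the culture days, and the sources differ on whether Day 0 cells were in it. Members were all clones with 1 gene symbol and a value on all 8 arrays, which gave 8287 of the 15360 clones, for 6267 genes. A value is the log2 ratio of sample to pool, averaged over the duplicate spots and centred on the median of the array within each slide, and a change is the later minus the early group on that log2 scale. The deposited ratios do not state their direction. Sample over pool was taken, since the sample comes first in each label, but the direction is not settled: arrays of one day in opposite dyes correlated over clones below 0 on 3 of the 4 days on each slide, from -0.418 to 0.199 on slide 2 and from -0.562 to 0.294 on slide 1. Values with Cy3 signs reversed are therefore given for the main counts, for the ribosomal proteins and for each gene list whose median changes sign. These are whole bodies, so fewer cells of a type and less RNA per cell cannot be told apart.

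LIF binds a receptor that contains gp130 (Il6st) and acts in mouse ES cells through the transcription factor Stat3, which keeps the cells self-renewing. In EBs the outermost cells become primitive endoderm and lay down a basement membrane of laminin and type IV collagen, while the core holds undifferentiated cells. Genes for ribosomal proteins, elongation factors and constitutive chaperones are among the most strongly transcribed in such rapidly dividing cells. Ribosomal proteins are needed in fixed proportion to one another.

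No clone passed the threshold. Limma, with the dye as a block, called 0 of 12504 clones (0%) at an adjusted p under 0.05, and the smallest adjusted p was 0.797. At an unadjusted p under 0.05 there were 248 clones, of which 221 had lower values in later bodies (1.77% of the clones tested) and 27 had higher values (0.216%). These shares are the ones to set beside the counts of such clones per gene list below. Of these 248, 124 were members, 104 with lower and 20 with higher values. The lower side was favoured less once the arrays were put on a common scale: 438 of 686 such clones (63.8%) were lower with equal spread in every array and 453 of 887 (51.1%) after quantile normalization, against 89.1% in the fit as given. With Cy3 signs reversed 63 clones had such a p, and 33 of them (52.4%) were lower. Every named gene below is therefore reported by its values and standard error (SE). The adjusted p was 0.797 for 80 of the 82 clones named by rule, and larger for the other 2, so none of them passed the test.

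The arrays were unequal. On slide 2 the Cy3 arrays had an SD over clones of 0.166 to 0.214, while the Cy5 arrays had 0.86 (D3+LIF) and 1.41 (D4+LIF) in later bodies and 0.702 (D1+LIF) and 0.983 (D2+LIF) in early bodies. On slide 1 the D1+LIF array in Cy5 stood apart, with an SD of 2.4, a highest single ratio of 3514 and no value for 7973 spots, so that all 1579 clones with 1 symbol that were left out lay on slide 1. Arrays of one dye correlated with each other on slide 2 at 0.523 to 0.796 in Cy3 and 0.843 to 0.942 in Cy5, unlike those of one day in opposite dyes. The change measured within Cy3 and the change measured within Cy5 correlated over clones at 0.378 on slide 2 (7679 clones) and at -0.000792 on slide 1 (4825 clones). Clones of one array share its RNA, dye and scan, so these are descriptions. Of the 124 members at an unadjusted p under 0.05, 117 lay on slide 2 and 7 on slide 1.

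**Figure D1:**
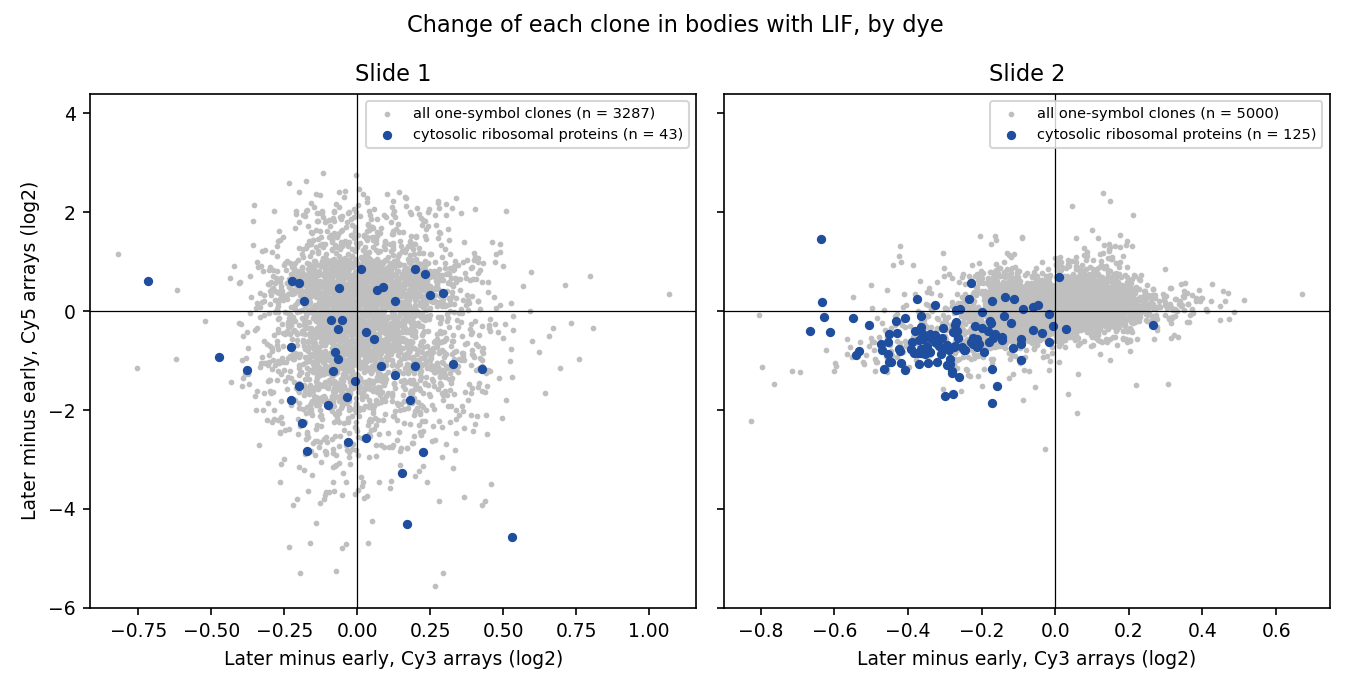
Later minus early change (log2) of each clone within the Cy3 arrays (x axis) and within the Cy5 arrays (y axis), for slide 1 and slide 2, with cytosolic ribosomal protein clones in blue. On slide 2 the ribosomal clones lie mostly below 0 in both dyes, and on slide 1 they spread around 0 in Cy3 (median -0.00677) and mostly below 0 in Cy5 (median -0.977).

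The genes for the cytosolic ribosome had the lowest median of the 29 gene lists in the fit as given. Other lists lay lower in 4 of the 6 alternatives, among them mesendoderm with Cy3 signs reversed (-0.26, against -0.191 for the ribosomal clones) and without centring (-0.423, against -0.302), chaperones with equal spread (-0.346, against -0.199) and pluripotency genes after quantile normalization (-0.272, against -0.227). Over the 168 clones of 72 ribosomal protein genes the median change was -0.444, against 0.000761 over all members. It was -0.232 within the Cy3 arrays and -0.629 within the Cy5 arrays. Averaged over clones, 68 of the 72 genes had a change below 0, against 3096 of all 6267 genes. Below 0 in each dye were 62 of the 72 (86.1%), against 27.7% of all genes. With Cy3 signs reversed 61 of the 72 had a change below 0, against 3237 of all genes. Only 6 of the 72 (8.33%) were then below 0 in each dye, against 22.8% of all genes. Both subunits were represented: 43 of 45 genes of the large subunit and 25 of 27 of the small subunit lay below 0. In 26 of the 168 clones (15.5%) both later arrays lay below both early arrays within each dye, against 4.52% of all clones tested, and in 0 clones did they lie above, against 2.9%. With Cy3 signs reversed no ribosomal clone was without overlap in either direction, against 1.33% of all clones for lower and 2.02% for higher values. At an unadjusted p under 0.05, 20 clones were lower and 0 higher, against 1.77% and 0.216% of all clones tested. None passed the adjusted threshold. The genes farthest down by their mean were Rpl32 (-1.26, 2 clones), Rpl23 (-0.982, 3 clones) and Rpl27 (-0.829, 2 clones), each with a change within Cy3 of -0.169 or nearer to 0. Rpl11 was the farthest on the other side, at 0.379 over 2 clones, but it had -0.313 within Cy3 and 1.07 within Cy5.

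The start sites of some of these genes are shown because vertebrate messages for ribosomal proteins and elongation factors open with a run of pyrimidines, the terminal oligopyrimidine tract, through which their translation is controlled. The windows hold 15 bases on each side of an annotated start, 5′ to 3′ on the sense strand, from RefSeq on GRCm38.p6. Capitals mark an unbroken run of C and T of at least 8 bases. Where a gene had several annotated starts, one with such a run was shown if there was any. The first 5 are genes of the protein synthesis lists, 3 with such a run and 2 without, and the last 2 are the genes of smallest p outside those lists that have a window.
Rps10 (chr17:27635230-27635259, minus strand): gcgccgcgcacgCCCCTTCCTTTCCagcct
Eef1a1 (chr9:78481710-78481739, minus strand): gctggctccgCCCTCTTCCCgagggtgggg
Rpl4 (chr9:64173372-64173401, plus strand): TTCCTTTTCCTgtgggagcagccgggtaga
Rpsa (chr9:120127751-120127780, plus strand): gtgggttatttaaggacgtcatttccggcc
Tpt1 (chr14:75845241-75845270, plus strand): gtcaccgctgacgacagttccgggggagcc
Scmh1 (chr4:120405333-120405362, plus strand): gccgagccgctctccagagccgtcgcccgc
Trmt5 (chr12:73286697-73286726, minus strand): ccagcctccgacgccctatttccgagctgc
The run spans the annotated start in Rps10 and Eef1a1, and in Rpl4 it lies wholly upstream of it. Such a run was found in 27 of the 58 ribosomal protein genes with a window (46.6%), in 5 of 29 translation factor genes (17.2%) and in 2 of 36 chaperone genes (5.56%), against 13.9% of all 27025 genes with a window. A gene was counted if any of its annotated starts had a run. Both choices favour runs in genes with several annotated starts. A run in this window is a match of letters and not a mapped tract.

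Rps10, a protein of the small subunit, had the smallest p of the list. Its values were -0.47 and -0.37 in Cy3 and -2.86 and -2.85 in Cy5 in later bodies (D3+LIF, then D4+LIF), against -0.10 and -0.24 in Cy3 and -2.12 and -2.12 in Cy5 in early bodies (D1+LIF, then D2+LIF). Within each dye the later values lay below the early ones without overlap, and the change was -0.49 (SE 0.13, adjusted p = 0.797). The other 3 clones of Rps10 had changes of -0.18 to -0.31. Rpl17, of the large subunit, had -0.27 and -0.04 in Cy3 and -3.23 and -3.31 in Cy5 in later bodies, against 0.14 and 0.13 in Cy3 and -1.99 and -2.38 in Cy5 in early bodies. Its change was -0.69 (SE 0.20), again without overlap within a dye, and its other 2 clones had -0.35 and -0.37. All 7 clones of Rpl7 lay below 0, the nearest to it at -0.404, and so did all 6 clones of Rpl4, from -1.51 to -0.00853.

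The size of the ribosomal change rested on few arrays. On slide 2 the median of its 125 clones was -0.36 and -0.181 in Cy3 and -2.81 and -4.3 in Cy5 in later bodies (D3+LIF, then D4+LIF), against -0.0127 and -0.0367 in Cy3 and -2.57 and -3.2 in Cy5 in early bodies (D1+LIF, then D2+LIF). In Cy3 both later days lay below both early days. In Cy5 D4+LIF was the lowest, but D3+LIF lay between D1+LIF and D2+LIF. Without the D4+LIF array in Cy5, which had the widest spread on slide 2, the median change over all 168 clones was -0.169, and without the D1+LIF array in Cy5 it was -0.288, while the number of clones with an unadjusted p under 0.05 was 9 and 11. Leaving out single arrays gave 6 (without D3+LIF in Cy3) to 50 (without D3+LIF in Cy5) such clones. With equal spread in every array the median was -0.199, after quantile normalization -0.227 and with Cy3 signs reversed -0.191. On slide 1 the 43 ribosomal clones had a median of -0.00677 within Cy3 and -0.977 within Cy5.

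**Figure D2:**
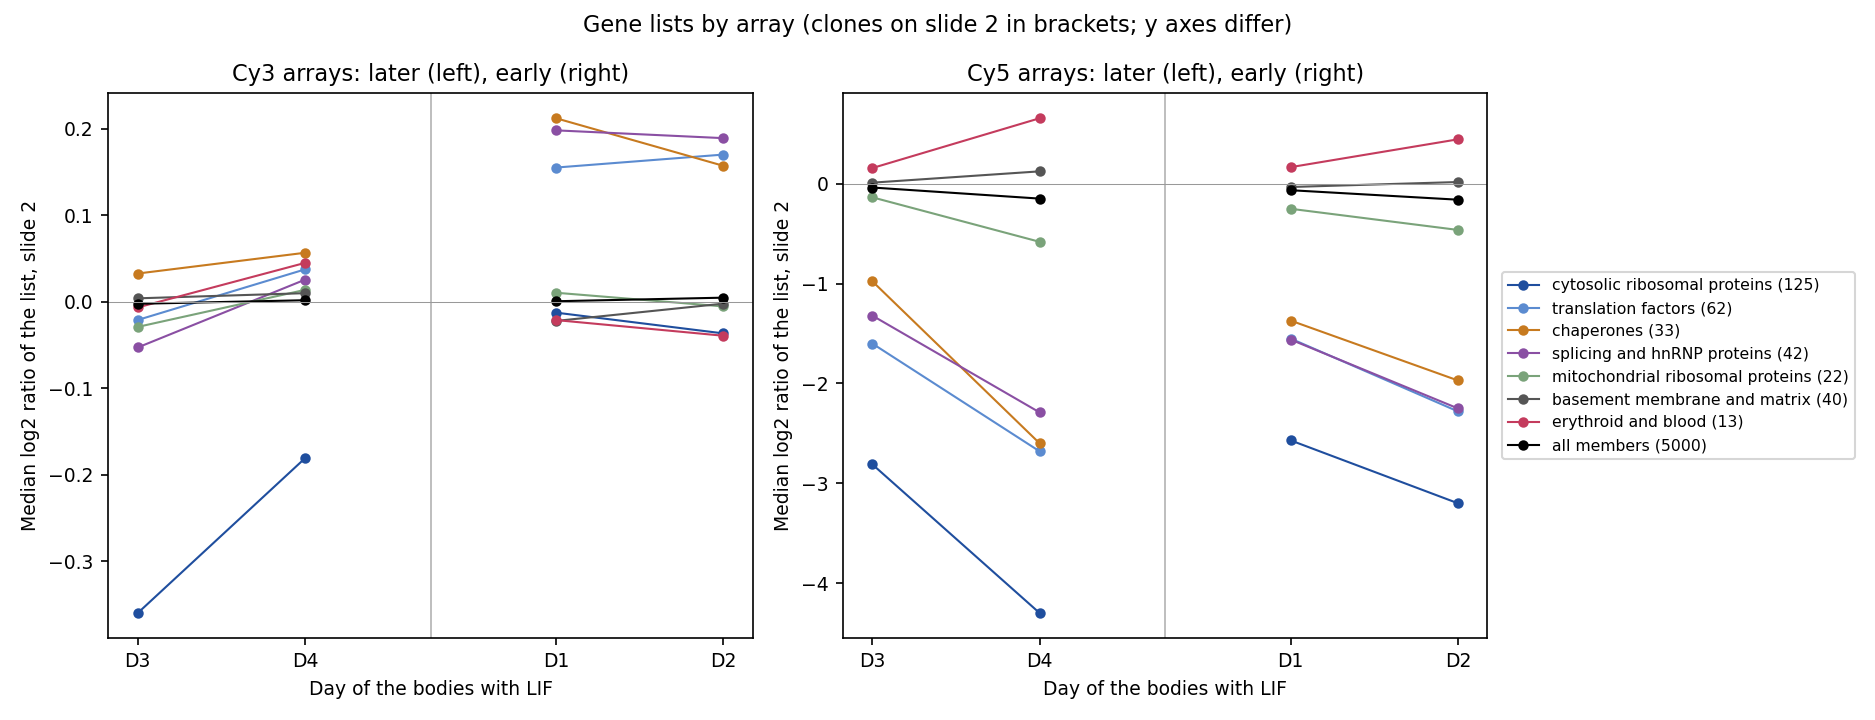
Median log2 ratio of the slide 2 clones of 8 groups on each array, with later days left and early days right, for Cy3 (left panel) and Cy5 (right panel, on another scale). The ribosomal median is lower on both later days in Cy3 (-0.36 and -0.181) than on both early days (-0.0127 and -0.0367), and in Cy5 only D4+LIF (-4.3) lies below both early days.

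The ribosomal clones were also those with low ratios in Cy5 on every day. Their slide 2 medians were -4.3 to -2.57 on the Cy5 arrays and -0.36 to -0.0127 on the Cy3 arrays of the same days. The level of a ratio thus differed between Cy3 and Cy5 arrays. For the named clones too, it is not read here as an amount relative to the pool. When the 5000 members of slide 2 were split into 5 equal bins by their mean log2 ratio over the 4 Cy5 arrays, the lowest bin (1000 clones, means of -4.52 to -0.965) held 122 of the 125 ribosomal clones. Its median change was -0.228, with -0.148 within Cy3 and -0.329 within Cy5, and it held 86 of the clones with lower values at an unadjusted p under 0.05. In the highest bin the median change was 0.179, with 0.0281 within Cy3 and 0.302 within Cy5. Between them the medians were -0.0313, 0.0217 and 0.0465. With equal spread in every array the lowest bin had -0.104 and the highest 0.059. The part of array spread in the ribosomal change was not tested.

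Translation factors lay on the same side, nearer to 0 in the fit as given but not with equal spread (-0.224, against -0.199 for ribosomal clones) or after quantile normalization (-0.238, against -0.227). Over 100 clones of 37 genes the median was -0.215, with -0.0877 within Cy3 and -0.317 within Cy5. At an unadjusted p under 0.05, 6 clones were lower and 0 higher, against 1.77% and 0.216% of all clones tested. Without the D4+LIF array in Cy5 the median was -0.0647 and without the D1+LIF array in Cy5 -0.0815. On slide 1 the 38 clones had a median of 0.0822 within Cy3 and -0.338 within Cy5. On slide 2 the 62 clones had -0.164 within Cy3 and -0.274 within Cy5. Eef1a1 carries aminoacyl-tRNA to the ribosome. Its clone of smallest p had 0.13 and 0.28 in Cy3 and -4.42 and -5.13 in Cy5 in later bodies, against 0.50 and 0.88 in Cy3 and -3.49 and -4.00 in Cy5 in early bodies. The change of that clone was -0.76 (SE 0.23) with no overlap within a dye, but the 17 clones of Eef1a1 ran from -0.944 to 0.621, and cDNA of such gene families may hybridise to more than one clone. Tpt1, the translationally controlled tumour protein, had -0.57 and -0.38 in Cy3 and -4.01 and -4.29 in Cy5 in later bodies, against 0.04 and -0.29 in Cy3 and -2.90 and -3.54 in Cy5 in early bodies (change -0.64, SE 0.21). Its second clone had -0.351. The 43 clones for mitochondrial ribosomal proteins, which serve a separate ribosome, had a median of 0.0971 (-0.00292 with Cy3 signs reversed) and 0 at an unadjusted p under 0.05. Mrps17 had a change of 0.356 (SE 0.15) and its second clone 0.333, while Mrps15 had one of -0.242 (SE 0.12).

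Among chaperones the constitutive heat shock protein Hspa8, which folds newly made proteins, gave the lowest p. Its values were 0.05 and 0.06 in Cy3 and -2.93 and -3.28 in Cy5 in later bodies, against 0.55 and 0.59 in Cy3 and -2.08 and -2.34 in Cy5 in early bodies. The change was -0.70 (SE 0.14, adjusted p = 0.797). A second clone on slide 2 had 0.04 and 0.07 in Cy3 and -2.67 and -2.26 in Cy5 in later bodies, against 0.37 and 0.55 in Cy3 and -1.74 and -1.82 in Cy5 in early bodies (change -0.54, SE 0.14). Neither clone overlapped between the groups within a dye. The remaining clone of slide 2 had -0.349 (SE 0.43), and the 3 clones on slide 1 ran from -2.5 to 0.272 with SE of 0.633 to 1.84. Pdia3, a disulphide isomerase of the endoplasmic reticulum that is on both the chaperone and the secretory list, had -0.25 and -0.05 in Cy3 and -4.07 and -4.49 in Cy5 in later bodies, against 0.28 and 0.24 in Cy3 and -2.86 and -3.48 in Cy5 in early bodies (change -0.76, SE 0.22). The 96 clones of 44 chaperone genes had a median of -0.115, with -0.0368 within Cy3 and -0.177 within Cy5. At an unadjusted p under 0.05, 3 were lower and 0 higher, against 1.77% and 0.216% of all clones tested. The median was -0.0201 without the D4+LIF array in Cy5. On slide 1 the 63 chaperone clones had a median of 0.053 within Cy3 and -0.304 within Cy5. On slide 2 the 33 clones had -0.174 within Cy3 and -0.139 within Cy5.

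**Figure D3:**
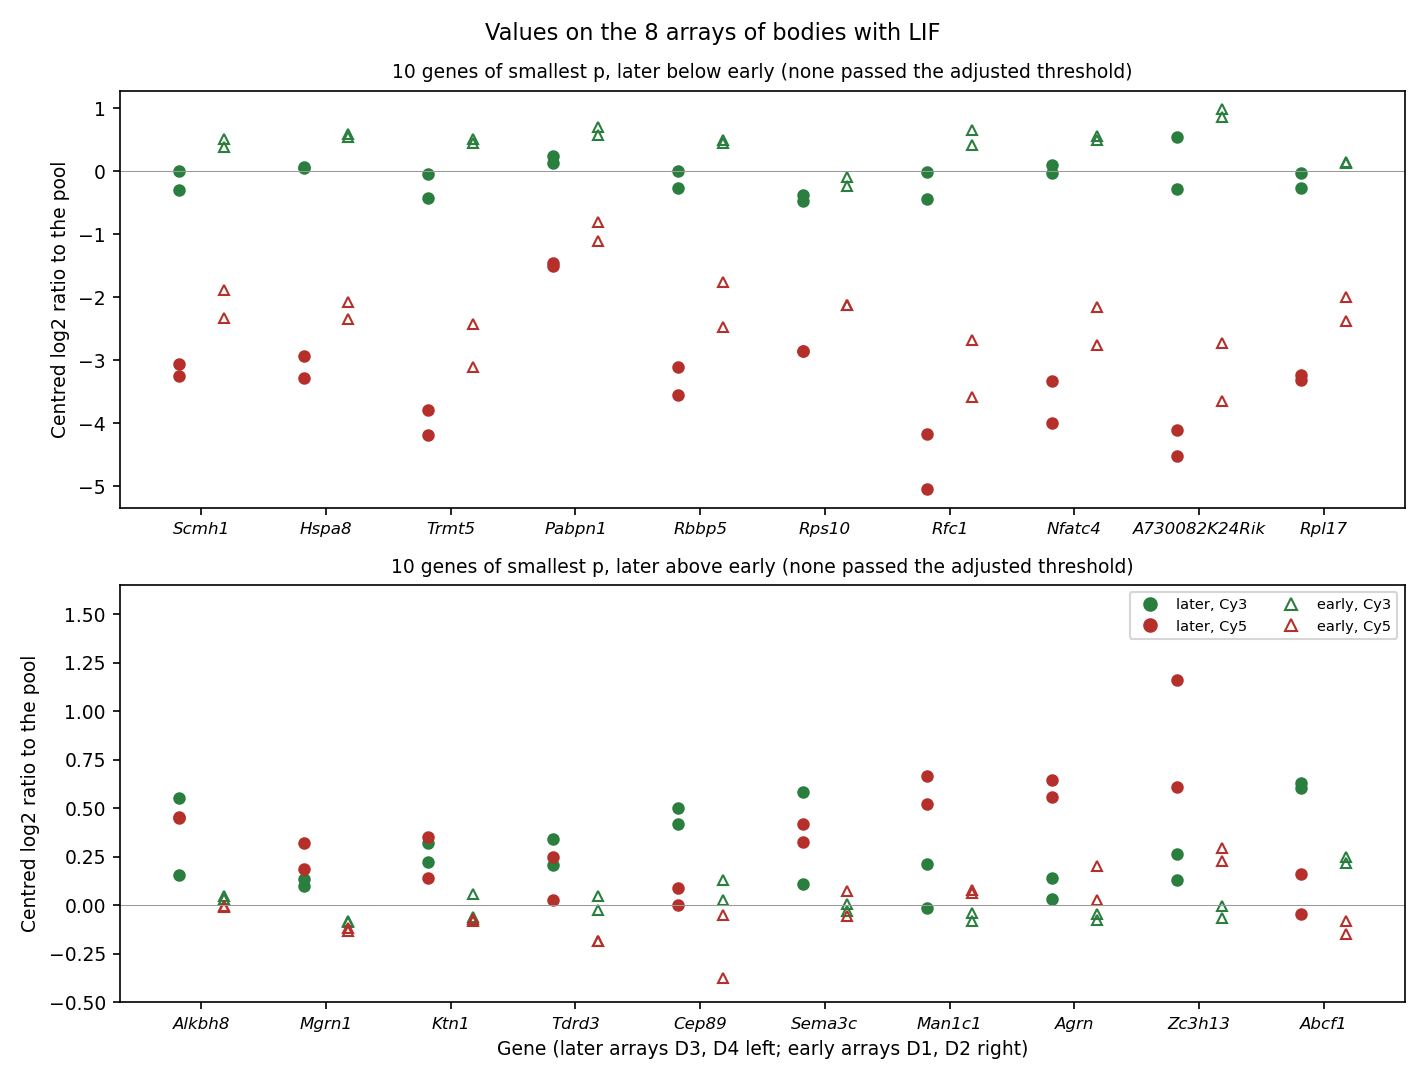
Centred log2 ratio to the pool on the 8 arrays for the 10 genes of smallest p with later values below early ones (top) and the 10 with later values above (bottom), with later arrays as filled circles on the left and early arrays as open triangles on the right of each gene. Within each dye the filled and open points of the top genes do not overlap, and none of the 20 passed the adjusted threshold.

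The remaining genes of smallest p on the lower side did not form one group. Scmh1, a Polycomb group protein, had -0.29 and -0.00 in Cy3 and -3.06 and -3.25 in Cy5 in later bodies, against 0.51 and 0.39 in Cy3 and -1.89 and -2.32 in Cy5 in early bodies. It had the smallest p of all members (change -0.82, SE 0.17, adjusted p = 0.797). Its second clone on the same slide had a change of 0.242. Trmt5, a tRNA methyltransferase (-0.967), Rbbp5, a subunit of histone H3 lysine methyltransferase complexes (-0.908), and Rfc1, the large subunit of the clamp loader (-1.12), had the same disagreement: their second clones had 0.116, 0.0576 and 0.14. Pabpn1, the nuclear poly(A) binding protein, had 0.24 and 0.12 in Cy3 and -1.50 and -1.46 in Cy5 in later bodies, against 0.58 and 0.70 in Cy3 and -0.81 and -1.11 in Cy5 in early bodies (change -0.49, SE 0.11). Its other 2 clones had -0.21 and 0.273. Nfatc4 (-0.846, SE 0.24) and A730082K24Rik (-0.96, SE 0.28) had 1 clone each. Of the 1491 genes with 2 or more member clones, 639 (42.9%) had all clones on one side of 0.

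Higher values in later bodies were smaller in size. Alkbh8, a tRNA modification enzyme, had 0.16 and 0.55 in Cy3 and 0.45 and 0.45 in Cy5 in later bodies, against 0.03 and 0.05 in Cy3 and -0.01 and -0.00 in Cy5 in early bodies. The groups did not overlap (change 0.39, SE 0.12, adjusted p = 0.797). Agrn, the heparan sulphate proteoglycan agrin of basement membranes, had 0.03 and 0.14 in Cy3 and 0.56 and 0.65 in Cy5 in later bodies, against -0.08 and -0.04 in Cy3 and 0.03 and 0.20 in Cy5 in early bodies (change 0.32, SE 0.12). Sema3c, a secreted semaphorin, had 0.59 and 0.11 in Cy3 and 0.42 and 0.33 in Cy5 in later bodies, against -0.03 and 0.01 in Cy3 and 0.07 and -0.06 in Cy5 in early bodies (change 0.36, SE 0.13). Its second clone had -0.0585. The others were Mgrn1 (0.288), Ktn1 (0.296), Tdrd3 (0.291), Cep89 (0.32), Man1c1 (0.34), Zc3h13 (0.427) and Abcf1 (0.277), with SE of 0.0989 to 0.162. With Cy3 signs reversed Cep89 had -0.0615 and Abcf1 -0.106. Ktn1, Tdrd3 and Abcf1 had further clones, and those of Ktn1 (-0.542 and -0.155) and Tdrd3 (-0.0913) lay on the other side of 0. That of Abcf1 had 0.164.

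Genes of the undifferentiated state gave no called change. The 32 clones of 21 pluripotency genes had a median of -0.146, with -0.127 within Cy3 and -0.132 within Cy5. None had an unadjusted p under 0.05. The 2 clones (6.25%) that were lower without overlap within each dye compare with 4.52% of all clones. With Cy3 signs reversed the median was 0.0314. Pou5f1, the transcription factor Oct4, had 0.13 and 1.13 in Cy3 and -0.11 and -1.83 in Cy5 in later bodies, against 0.43 and 0.17 in Cy3 and -2.68 and -0.96 in Cy5 in early bodies (change 0.59, SE 0.53), and was -0.185 with equal spread in every array. Nanog, another such factor, had -0.63 and 0.32 in Cy3 and -1.82 and -1.90 in Cy5 in later bodies, against 0.16 and -0.10 in Cy3 and -2.86 and -1.14 in Cy5 in early bodies (change -0.02, SE 0.40). Later and early values of both genes overlapped, and both clones lie on slide 1. Phc1, a Polycomb protein, had the smallest p of the list: -0.48 and -0.27 in Cy3 and -2.53 and -2.85 in Cy5 in later bodies, against -0.12 and -0.02 in Cy3 and -1.69 and -2.45 in Cy5 in early bodies (change -0.46, SE 0.20). Its second clone had -0.45. Dnmt3l, which assists DNA methylation, had -0.735 (SE 0.34). Zfp42 was left out for missing values and Sox2 was not matched.

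The LIF pathway itself showed no common change: the 21 clones of 14 genes had a median of -0.0346, with 0 at an unadjusted p under 0.05. Stat3 had -0.06 and -0.05 in Cy3 and -0.05 and -0.20 in Cy5 in later bodies, against 0.05 and 0.19 in Cy3 and 0.05 and 0.25 in Cy5 in early bodies. This clone gave -0.22 (SE 0.11) without overlap, and the other 2 clones of Stat3 gave -0.3 and 0.367. Il6st, the gp130 subunit, had 0.20 and 0.10 in Cy3 and 0.21 and 0.22 in Cy5 in later bodies, against 0.06 and 0.09 in Cy3 and 0.01 and -0.09 in Cy5 in early bodies (change 0.16, SE 0.10). Its second clone had -0.0911.

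Genes of extraembryonic endoderm and of its basement membrane were centred on 0. The endoderm list (47 clones of 28 genes) had a median of -0.0117 (0.025 with Cy3 signs reversed) and the matrix list (57 clones of 37 genes) one of 0.0071, with 1 clone lower in the first and 1 higher, Agrn, in the second at an unadjusted p under 0.05. Gata4, a defining transcription factor of primitive endoderm, had -0.14 and -0.07 in Cy3 and 0.35 and 0.52 in Cy5 in later bodies, against -0.01 and -0.01 in Cy3 and 0.32 and 0.67 in Cy5 in early bodies (change -0.08, SE 0.12). The values overlapped in Cy5. Dab2 had 0.0628 and Ttr 0.485, with SE of 0.11 and 0.41. Tfpi, an inhibitor of coagulation made by parietal endoderm, was the lower clone (-0.42, SE 0.15), and its second clone had -0.0126. Plat, the tissue plasminogen activator, had -0.698 (SE 0.40), and its second clone -0.00231. Col3a1, a fibrillar collagen, had 0.04 and 0.13 in Cy3 and 0.74 and 1.27 in Cy5 in later bodies, against -0.07 and -0.09 in Cy3 and 0.12 and 0.50 in Cy5 in early bodies (change 0.43, SE 0.19), while its other 3 clones ran from -0.423 to 0.0893.

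Markers of the germ layers were few on the array. Of 26 defining markers of 7 cell types, 13 had a clone and 11 were tested, and trophoblast had none tested. Mesendoderm (5 clones, median -0.291) was represented by Eomes (0.934, SE 0.788) and by Mesp2, a somite segmentation factor, which had -1.02 and -0.69 in Cy3 and -3.76 and -4.77 in Cy5 in later bodies, against -0.39 and -0.53 in Cy3 and -2.70 and -3.55 in Cy5 in early bodies (change -0.77, SE 0.31). The symbol of this Mesp2 clone is that of the probe annotation. The paper lists primers for an EST of the clone under a sequence number, without a gene name. Whether the clone's sequence belongs to Mesp2 was not tested. The second clone of Mesp2 had -0.444. Eomes had -3.38 on the D1+LIF array in Cy5 and values of -0.27 to 0.48 on the other 7 arrays. In the neurectoderm list (9 clones, median -0.114) the intermediate filament Nes had 0.484 (SE 0.40), Dpysl2 had -0.487 (SE 0.18) and Stmn1, a regulator of microtubules, -0.42 (SE 0.27). Primitive ectoderm (8 clones) had a median of -0.0496, with Cdh2 at -0.819 (SE 0.41) and Sall2 at -0.227 (SE 0.17). Trophoblast (11 clones) had 0.221, with Plac1 at -1.02 (SE 0.58) and Krt18 at -0.527 (SE 0.33). The second clone of Plac1 had 0.974 and the other 2 clones of Krt18 had 0.658 and 0.221, on the other side of 0. The fibroblast and muscle list (18 clones) had 0.0214 (-0.0482 with Cy3 signs reversed), with Col1a1 at -0.00198, Col1a2 at -0.0672 and -0.113, and Lum at 0.205 (SE 0.11).

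The list of erythroid and blood genes had 14 of its 16 clones above 0, with a median of 0.198, 0.0803 within Cy3 and 0.228 within Cy5, and 0 at an unadjusted p under 0.05. Hbb-y, the embryonic beta-like globin, gave 0.39 and 0.39 in Cy3 and 0.16 and 0.39 in Cy5 in later bodies, against 0.25 and 0.08 in Cy3 and 0.17 and 0.03 in Cy5 in early bodies (change 0.20, SE 0.11). The groups overlapped in Cy5. Its 4 clones ran from 0.197 to 0.414 and may hybridise to related globins. Hbb-b1, an adult beta globin, had 0.199 (SE 0.12), and its second clone 0.0134. Hba-x, the embryonic alpha-like globin, had -0.0298 and Gata1, the erythroid transcription factor, 0.897 (SE 0.80).

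**Figure D4:**
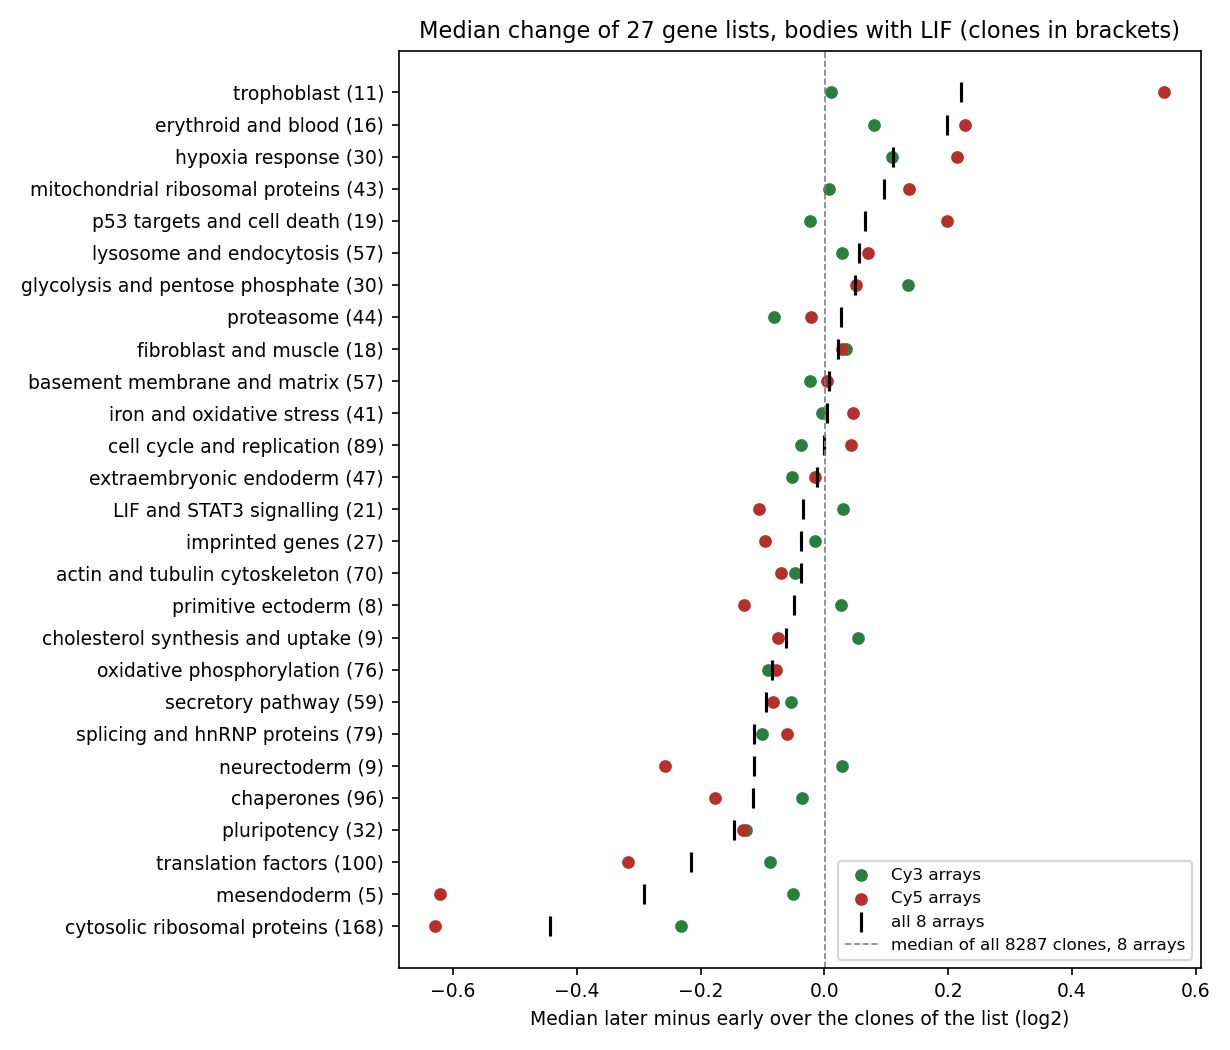
Median later minus early change (log2) over the clones of 27 gene lists within the Cy3 arrays (green), within the Cy5 arrays (red) and over all 8 arrays (black bars), with the median of all members as a dashed line. Cytosolic ribosomal proteins are lowest at -0.444 in this fit (with Cy3 signs reversed mesendoderm is, at -0.26, against -0.191), and most other medians lie within 0.2 of 0.

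Energy metabolism and the cytoskeleton held single genes with lower values but no common change. Oxidative phosphorylation (76 clones of 53 genes) had a median of -0.0841, with 8 clones (10.5%, against 4.52% of all clones) lower without overlap within each dye. At an unadjusted p under 0.05, 1 clone was lower (against 1.77% of all clones) and 0 higher (against 0.216%). That clone was Cox4i1, a subunit of cytochrome c oxidase: it had -0.97 and -0.35 in Cy3 and -3.33 and -4.26 in Cy5 in later bodies, against -0.16 and -0.24 in Cy3 and -2.03 and -3.11 in Cy5 in early bodies (change -0.84, SE 0.35). A second clone had -0.746 (SE 0.33), and the other 2 had -0.199 and 0.333. Sdha, of succinate dehydrogenase, had 0.61 (SE 0.26), and its second clone -0.0727. Glycolysis and the pentose phosphate pathway (30 clones) had 0.0496 (-0.0524 with Cy3 signs reversed), with Hk1 at 0.24 (SE 0.11) and Pfkl at -0.694 (SE 0.38). Another Pfkl clone had 0.235. The hypoxia list (30 clones) had 0.111, with the glucose transporter Slc2a3 at 1.23 (SE 0.76) and Bnip3 at -0.317 (SE 0.22). In the cytoskeleton list (70 clones, median -0.0376) 2 clones were lower at an unadjusted p under 0.05, against 1.77% of all clones. They were Tmsb4x, the actin-binding thymosin beta, at -0.729 (SE 0.25), and Actg1, cytoplasmic gamma actin, at -0.664 (SE 0.26). The second clone of Actg1 had -0.799 (SE 0.34). Tmsb4x had -0.25 and -0.12 in Cy3 and -2.94 and -3.45 in Cy5 in later bodies, against 0.33 and 0.28 in Cy3 and -1.75 and -2.70 in Cy5 in early bodies, without overlap.

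RNA-binding proteins of splicing gave 5 of 79 clones lower and 0 higher at an unadjusted p under 0.05. The shares over all clones were 1.77% and 0.216%. Without overlap within each dye, 8 clones were lower (10.1%, against 4.52% of all clones). The median was -0.114, and 0.0414 with Cy3 signs reversed. The slides differed in sign: the 37 clones of slide 1 had a median of 0.211 and the 42 of slide 2 one of -0.216. Without the D4+LIF array in Cy5 the median of the list was 0.00893. Pcbp2 had -0.63 and -0.31 in Cy3 and -3.91 and -4.59 in Cy5 in later bodies, against 0.11 and 0.05 in Cy3 and -2.86 and -3.77 in Cy5 in early bodies (change -0.74, SE 0.26). Hnrnpl had -0.07 and -0.03 in Cy3 and -2.15 and -2.27 in Cy5 in later bodies, against 0.27 and 0.15 in Cy3 and -1.49 and -1.93 in Cy5 in early bodies (change -0.38, SE 0.14). In the secretory pathway (59 clones, median -0.0935), Sec61g, a subunit of the translocon, had -0.596 (SE 0.20). The proteasome (44 clones) had a median of 0.0276, with Psmd9 at -0.507 (SE 0.19) and Psma3 at -0.353 (SE 0.14). The other 2 clones of Psma3 had -0.898 and 0.0318. Cell cycle and replication genes (89 clones of 60 genes) had a median of -0.00105 (0.0487 with Cy3 signs reversed), with Rfc1 as the 1 lower clone and Hmgb2 at -0.627 (SE 0.33).

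The other lists were close to the median of all members. Lysosome and endocytosis genes (57 clones) had 0.0555, with Glb1, lysosomal beta-galactosidase, at -0.315 (SE 0.13) and Clta at -1.27 (SE 0.67). Another clone of Glb1 had -0.00907. Iron and oxidative stress genes (41 clones) had 0.00477 (-0.00126 with Cy3 signs reversed), with the glutathione transferase Gsta4 at -0.454 (SE 0.17) and Prdx2 at -0.938 (SE 0.46). Imprinted genes (27 clones) had -0.0374, with Sgce at -0.937 (SE 0.39) and Peg10 at -0.935 (SE 0.56). The second clone of Sgce, on the same slide, had 0.0067, and that of Peg10 -0.861. The p53 targets and cell death genes (19 clones) had 0.065 (-5.6e-06 with Cy3 signs reversed), with Pdcd4 at 0.282 (SE 0.14) and Mcl1 at -0.373 (SE 0.20). Their second clones had 0.0471 (Pdcd4) and -0.0543 (Mcl1). Cholesterol synthesis and uptake (9 clones) had -0.0614, with Npc1 at 0.481 (SE 0.29) and Sqle at -0.603 (SE 0.55). The second clone of Npc1 had -1.46.

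The study also picked genes from these arrays and examined them by RT-PCR, so a place among those genes is no independent evidence. The RT-PCR itself used several biological replicates, and the paper reports a low rate of consistent patterns among the genes tested. The study tested its genes in bodies with and without LIF, and the genes listed here are only a part of them. Among the others, the paper reports Hspa8, Eif4a1, Rplp1, Rpl8, Rps2 and Rps28 as lowered when differentiation began. That is another comparison than later against early bodies. Of 5 such genes listed here for bodies with LIF 4 were measured, with 18 clones and a median of -0.284. Besides Cox4i1 they were Tubb5, Tkt and Aurkb. Tubb5, a beta tubulin, had -0.48 and -0.15 in Cy3 and -3.19 and -4.29 in Cy5 in later bodies, against 0.01 and 0.06 in Cy3 and -2.35 and -3.02 in Cy5 in early bodies (change -0.70, SE 0.30), and 6 of its 7 clones lay below 0. Tkt, transketolase of the pentose phosphate pathway, had 0.68 and 0.48 in Cy3 and -0.43 and -1.04 in Cy5 in later bodies, against 0.10 and 0.14 in Cy3 and -0.63 and -1.24 in Cy5 in early bodies (change 0.33, SE 0.20). Its groups overlapped in Cy5, and its 6 clones ran from -0.708 to 0.355. Aurkb, the mitotic aurora kinase B, had 1.58 and 2.08 in Cy3 and 0.69 and 0.54 in Cy5 in later bodies, against 1.07 and 2.17 in Cy3 and 4.43 and 0.46 in Cy5 in early bodies (change -0.81, SE 0.90). The value of 4.43 was that of the D1+LIF array in Cy5 on slide 1, and without that array the change was 0.186. Of the study's control and marker genes 7 were measured, with 14 clones and a median of 0.152, which was -0.426 with equal spread in every array. Actb ran from -1.57 to 0.76 over 6 clones, Gapdh from -1.42 to 0.324 over 2 clones and Hprt from -0.224 to 0.365 over 2 clones.

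The same later minus early change was set against that in bodies without LIF, with the interaction of period and LIF fitted over 16 arrays and the dye as a block. Limma called 0 of 8740 clones (0%) with a value on all 16, the smallest adjusted p was 0.895, and 368 clones (4.21%) had an unadjusted p under 0.05. Most of these clones lie on slide 2 (7679), since the D2-LIF array in Cy5 lacks values for much of slide 1. With Cy3 signs reversed limma called 0 clones, and 160 had an unadjusted p under 0.05, 37 higher and 123 lower. The fit as given had 168 higher and 200 lower. The list medians and named differences below were not computed with Cy3 signs reversed, so they rest on the direction taken for the ratios. For the 153 ribosomal clones with values on all 16 arrays, the median change was -0.432 with LIF and -0.212 without LIF, and the median difference between them was -0.177, with 97 of 153 clones below 0. Over all 5758 members of this fit the medians were 0.0266 with LIF, -0.0274 without LIF and 0.0617 for the difference, with 2337 below 0. For translation factors the medians were -0.189 with LIF and -0.058 without, for pluripotency genes -0.127 with LIF and -0.232 without, for erythroid and blood genes 0.198 with LIF and 0.0216 without, and for chaperones 0.0419 with LIF and -0.192 without. The chaperone values rest on 63 of the 96 clones, and the median with LIF over all 96 was -0.115, on the other side of 0.

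**Figure D5:**
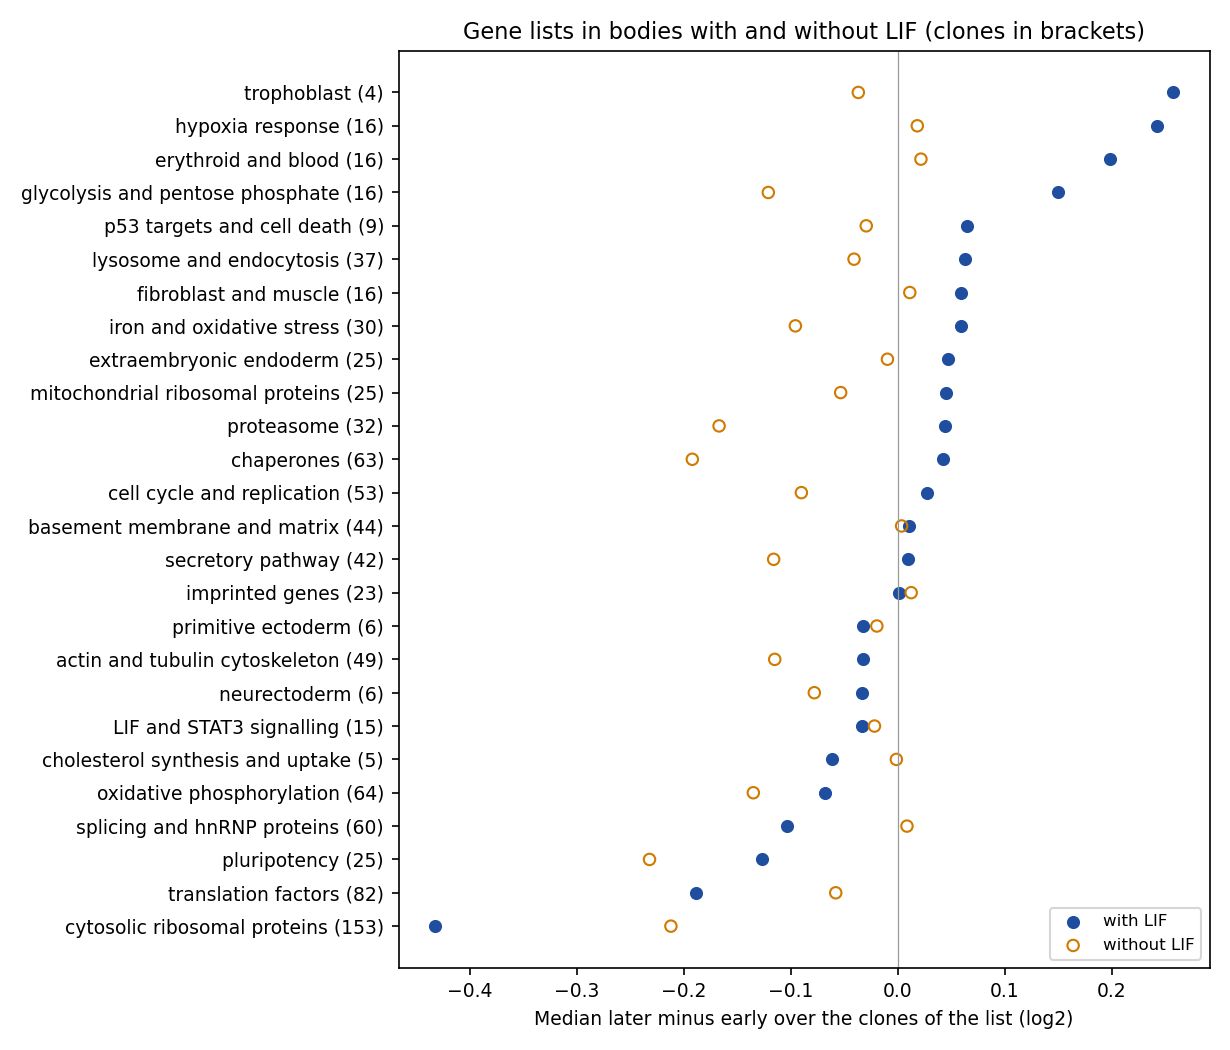
Median later minus early change (log2) of gene lists over the clones with values on all 16 arrays, in bodies with LIF (filled) and without LIF (open). Cytosolic ribosomal proteins are lowest with LIF (-0.432) and at -0.212 without LIF, and no clone passed the test of the difference.

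The smallest p for that difference belonged to A730082K24Rik, whose change was -0.96 with LIF and 1.19 without LIF (difference -2.15, SE 0.40, adjusted p = 0.895). With LIF it had -0.28 and 0.54 in Cy3 and -4.11 and -4.52 in Cy5 in later bodies, against 0.98 and 0.87 in Cy3 and -2.73 and -3.65 in Cy5 in early bodies. Without LIF it had 0.67 and 1.37 in Cy3 and -3.18 and -2.42 in Cy5 in later bodies, against -0.25 and 0.49 in Cy3 and -4.52 and -4.04 in Cy5 in early bodies. Within each dye the later values lay below the early ones with LIF and above them without LIF. Hnrnpk, an RNA-binding protein, had a change of -0.24 with LIF and 2.34 without LIF (difference -2.58, SE 0.63), but its other 2 clones had differences of -0.64 and -0.13. Cdh11, a cadherin of mesenchymal cells, had -0.42 with LIF and 0.40 without LIF. On the other side stood Ankrd40 (0.29 with LIF, -0.22 without LIF), Slc25a5, a carrier of ADP and ATP (0.25 with LIF, -0.35 without LIF, with a difference of 1.45 in its second clone), and Gng12, a subunit of G proteins (0.31 with LIF, -0.44 without LIF). None of these differences passed the adjusted threshold.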

How the data were processed

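Linear ratios between the channels were deposited per spot for 18 arrays and were taken here as sample over pooled control. The authors quantified spots in ImaGene and scaled the channels of a slide by their mean intensities before taking the ratio. Intensities and the background filter by blank spots were not used here. Ratios were taken to log2, duplicate spots (160 spots apart within grids of 360) were averaged, and the median of an array was set to 0 on each slide of 17280 spots. The first and last rows of each grid, which carry no gene and no duplicate at that distance, were left out. The probe table's symbols were checked through Entrez gene IDs, of which 9760 of 9866 were in RefSeq, all with the same symbol. Of the 15360 clones 274 had several symbols and 5220 none. Limma 3.58.1 (R 4.3.3) was run on the 12504 clones measured on all 8 arrays, with period and dye as terms, two-sided and with Benjamini-Hochberg adjustment. The labels do not number replicates, so the numbers used here only name the Cy3 (1) and Cy5 (2) array and the dye is the block. Arrays were taken as separate RNA samples. The p-values measure the spread of the arrays around the terms for period and dye. That spread includes differences between the days of a group and between the dyes in the size of the change. The number of arrays limits the precision. SAM, which the study used with a 2-fold limit, was not run.

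Members and gene lists were chosen with earlier results of these data known. Genes were named by a rule: the 10 of smallest p on each side among clones of one sign in both dyes, since none passed; the 2 of smallest p from each of 27 lists; every measured gene of 2 lists taken from the study; and the 3 of smallest p on each side for the difference between bodies with and without LIF. Other clones of a named gene are given beside it, as a range or count for genes with many, and Rpl32, Rpl23, Rpl27, Rpl11, Rpl7 and Rpl4 were chosen after seeing their values. The defining markers were Pou5f1, Nanog, Sox2 and Zfp42 (ES cells), Gata4, Gata6, Sox17, Dab2, Afp and Ttr (extraembryonic endoderm), T, Mixl1, Eomes and Gsc (mesendoderm), Nes, Sox1 and Pax6 (neurectoderm), Cdx2, Elf5 and Tpbpa (trophoblast), Gata1, Hba-x and Hbb-bh1 (blood), and Col1a1, Col1a2 and Postn (fibroblasts). The fit was tested on simulated data. The alternatives were other centring and scaling, no dye term, other models of the days, all 18 arrays, array weights, other handling of duplicate spots, missing values and genes, a 2-fold limit, turned Cy3 signs, single dyes, single slides and leaving out each array.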

Additional observations from a re-analysis of the deposited data

Results flagged for a closer look

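In 12 of 164 groups of 4 arrays of the named clones, 1 array lay farther from the other 3 than Dixon's limit allows. The chance rate of about 1 group in 20 assumes values of one kind. Each group here mixes dyes and days, so the count cannot be set against that rate. Of these, 6 were the D1+LIF array in Cy5 and 7 were clones of slide 1. On that array the early group had Eomes at -3.38 (the next value was -0.126), Plat at 1.76 (next 0.309), Plac1 at 2.39 (next 0.228), Slc2a3 at -3.92 (next -0.584), Npc1 at -1.32 (next -0.0654) and Nes at -1.79 (next -0.112). The other early values apart were those of the D2+LIF array in Cy5 for Sdha (-0.618, next -0.114) and Cdh11 (-0.33, next 0.00175). Among later arrays, Stat3 had -0.196 on D4+LIF in Cy5 (next -0.0621), Il6st 0.0953 on D4+LIF in Cy3 (next 0.204), Hbb-y 0.158 on D3+LIF in Cy5 (next 0.386) and Npc1 0.504 on D3+LIF in Cy3 (next 0.0145).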

How the results depend on the processing

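The count of called clones was 0 under all 28 alternatives for later minus early bodies with LIF and under all 22 for the difference between bodies with and without LIF, the replicate block included: without the dye term limma called 0 clones in either, with 14 and 134 at an unadjusted p under 0.05. Leaving out single arrays gave 0 to 0 called clones in each comparison. At an unadjusted p under 0.05 the count for bodies with LIF was 248 and ran from 138 (without D3+LIF in Cy3) to 408 (without D3+LIF in Cy5) when an array was left out, and it was 1176 with array weights, 566 for the linear trend over days, 887 after quantile normalization, 63 with the Cy3 signs turned (33 lower), 856 from Cy3 arrays alone, 121 from Cy5 arrays alone, 391 on slide 2 and 2 on slide 1. The cause was not tested. Of the 82 named clones 67 kept their sign under every setting run for them, of up to 24. With the Cy3 signs turned the change was -0.0615 for Cep89, -0.106 for Abcf1, -0.0245 for Hbb-y, -0.131 for Tkt, 0.0154 for Gata4, 0.163 for Nanog and 0.188 for Hnrnpk. From Cy3 arrays alone it was 0.0337 for Cdh2, -0.0512 for Eomes, 0.0149 for Bnip3, 0.0218 for Sqle, 0.209 for Aurkb and 0.196 for Actb, and from Cy5 arrays alone 0.143 for Nanog. With equal spread it was 0.0104 for Bnip3 and -0.185 for Pou5f1, and after quantile normalization 0.138 for Dnmt3l and 0.133 for Bnip3. Gata4 had 0.093 as deposited and 0.0135 with whole-array centring, Nanog 0.109 as a trend and Aurkb 0.314 with array weights. Leaving out single arrays gave -0.965 to 0.008 for Sqle, -1.4 to 0.186 for Aurkb and -0.397 to 0.292 for Nanog, with both ends set by D1+LIF and D2+LIF in Cy5. Of 29 list medians 8 kept one sign under the 6 alternatives run. They were cytosolic ribosomal proteins, translation factors, chaperones, mesendoderm, trophoblast, erythroid and blood, hypoxia response, and lysosome and endocytosis. Uncentred ratios shifted the median over the members to 0.113. List medians with single arrays or a slide left out were chosen after seeing the data.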
